A study of Homo sapiens with 12 samples.

Results

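The genes described here are 34 listed genes of the ATF4 program and of amino acid supply, of 54127 gene identifiers in the count files. They were chosen by name, as known genes of the integrated stress response and of amino acid synthesis or transport, and all 34 were among the 14501 genes that passed the filter on low counts. The cells were C4-2, an established human line that was derived from the LNCaP prostate cancer line. Each group had 6 samples: SiCHKA (siCHKA), transfected with a pool of small interfering RNAs (siRNAs) against CHKA, and SiNTCONTROL (siNT), transfected with nontargeting siRNA. Both groups were grown in RPMI with serum and reverse transfected with lipofection reagent at 50 nM siRNA, and polyadenylated RNA was sequenced. The labels speak of flow-sorted cells and a miRNeasy kit, whereas the study's methods name another RNA kit and no sorting for these libraries. The comparison therefore concerns 1 cell line and 1 siRNA pool, with no untransfected sample. The study calls its replicates biological, but its figure legends speak of triplicate experiments for the siCHKA gene list and of 6 replicates for single genes. The labels do not say whether the samples came from separate cultures, so p-values measure the spread between these samples, which may be technical. The tests count the 6 samples of a group as independent. The replicate sets described below mean that this may overstate their number and make the p-values too small.

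ATF4 is a transcription factor of the integrated stress response. When amino acids run short or the endoplasmic reticulum is under stress, kinases phosphorylate the eIF2 complex that carries the first tRNA to the ribosome, most translation slows, and the ATF4 message is translated better. ATF4 protein then raises transcription of genes that import amino acids, make serine, glycine, asparagine and proline, and support cysteine and folate metabolism. Much of this control is at the level of translation and protein, which an RNA measurement does not read.

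CHKA, which encodes choline kinase alpha, the first enzyme of phosphatidylcholine synthesis by the Kennedy pathway, was measured first as a check of the labels. Its level in CPM (read counts relative to library size) was between 1.91 and 4.67 with a median of 2.31 in siCHKA and between 36.7 and 43.3 with a median of 41.6 in siNT, so that every siCHKA sample was far below every siNT sample. The log2 fold change was -3.88 (SE 0.14; edgeR quasi-likelihood test, adjusted p = 5.89e-13).

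Between 10685184 and 24246055 reads per sample were counted on genes, so that 3 counts were worth 0.124 to 0.281 CPM. Samples of the same group were not alike. In siCHKA, replicates 1, 3 and 5 stood apart from replicates 2, 4 and 6, with a chi-square per degree of freedom over genes of 2.25 to 8.56 between samples of the same set and 11.3 to 22.2 across sets. In siNT, replicates 1, 2 and 3 were set against replicates 4, 5 and 6, but this split was not clean: the values were 2.36 to 16.0 within and 7.87 to 27.7 across sets, and replicates 2 and 3 of the same set differed more (16.0) than several pairs across sets. The labels name no batch, and these sets were seen in the data, so differences between them are given as descriptions with no test. CHKA itself was at 1.91 to 2.34 CPM in siCHKA replicates 1, 3 and 5 and at 2.27 to 4.67 CPM in replicates 2, 4 and 6. The share of alignments that were not unique was 27.6% to 29.2% in the first set and 29.4% to 30.6% in the second. The part of these quantities in the results was not tested. Results that rest on the sets are given with and without them.

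Of the 34 genes, 15 were lower in siCHKA, 10 were higher and 9 did not pass the test (adjusted p below 0.05 over all genes tested). Transcripts of ATF4 itself, of its target TRIB3 and of 6 of 7 amino acid transporters were lower, at 53.7% to 87.4% of their siNT level, whereas PPP1R15A, ALDH1L2 and VLDLR were higher, at 145.4%, 138% and 126%. For several other textbook ATF4 targets the group means did not differ as those of ATF4 did: the means of ASNS, DDIT3 and NUPR1 differed between the groups by less than the SD of the siCHKA samples, and none of the 3 passed the test, although within siCHKA all 3 were lower in the replicates in which ATF4 was lowest. Changes were widespread in this experiment: 62.2% of the 14501 genes tested passed the test, 30.1% lower and 32.1% higher, so that 44.1% of the listed genes lower and 29.4% higher are to be read against those shares. With a minimum size of 0.5 on the log2 scale, 9 of the 34 were lower and 1 was higher, where 14.0% and 16.2% of all genes were. The 2 groups of 6 samples did not overlap for 12 of the listed genes (35.3%), 11 of them lower and 1 higher, and for 40.6% of all genes. The median log2 fold change of the 34 was -0.10, that of all genes 0.04, and the range was -0.90 to 0.54.

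**Figure D1:**
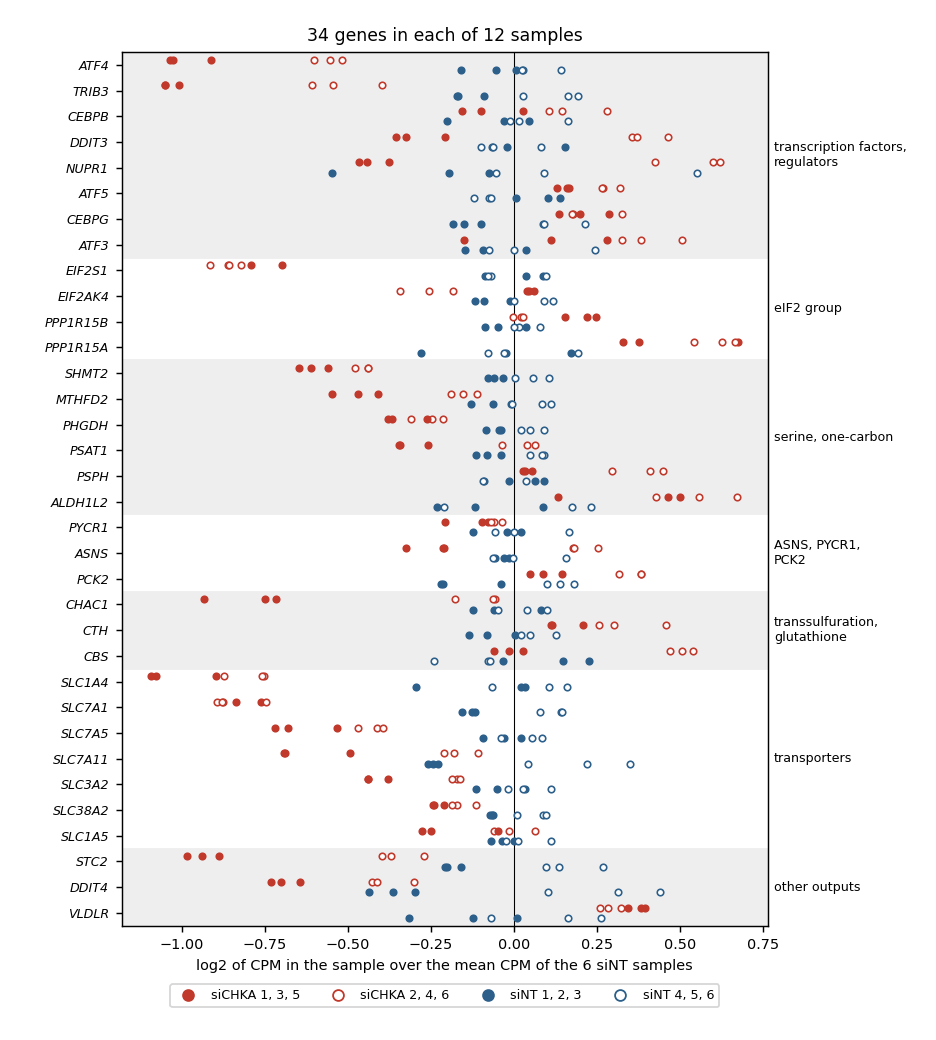
Each row is 1 of the 34 genes and each point 1 sample, placed on the x axis by the log2 ratio of its CPM to the mean CPM of the 6 siNT samples. Red points are siCHKA (filled, replicates 1, 3 and 5; open, replicates 2, 4 and 6) and blue points siNT (filled, replicates 1, 2 and 3; open, replicates 4, 5 and 6). All red points of ATF4, TRIB3, EIF2S1, SLC1A4 and SLC7A1 lie left of all blue points, and for 24 genes the filled red points lie left of the open red points without overlap.

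Of the 8 listed transcription factors and regulators, 2 were lower, 3 higher and 3 passed in neither direction. These counts are near the 30.1% of all genes that were lower and the 32.1% that were higher. ATF4 (chromosome 22, 39519695 to 39522683, plus strand, in GRCh38) had 202 CPM in the lowest, a median of 246.2 and 289 in the highest siCHKA sample, against 370, 418 and 456 CPM in siNT. All 6 siCHKA samples were below all siNT samples, and within siCHKA the replicates 1, 3 and 5 had the 3 lowest values. The mean was 245 ± 40.7 CPM in siCHKA and 414 ± 28.4 in siNT (SD, n = 6), a log2 fold change of -0.76 (SE 0.09, edgeR adjusted p = 1.75e-06). The annotation holds 4 pseudogenes named after ATF4, and reads that aligned equally well to 1 of them were left out by the authors' counting.

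TRIB3 (chromosome 20, 362835 to 397559) encodes a pseudokinase that is induced by ATF4 and restrains it in turn. Its level ran from 56.4 through a median of 67.3 to 88.6 CPM in siCHKA and from 103.6 through 114 to 133 CPM in siNT. The groups did not overlap, and the log2 fold change was -0.75 (SE 0.11, edgeR adjusted p = 1.89e-05).

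DDIT3, which encodes the stress factor CHOP and is a classical target of ATF4, gave a mean of 43.7 ± 11.4 CPM in siCHKA and 41.0 ± 2.85 in siNT (SD, n = 6; log2 fold change 0.10, SE 0.13, edgeR adjusted p = 0.539). That mean hides a split: siCHKA replicates 1, 3 and 5 averaged 33.4 CPM, below every siNT sample, and replicates 2, 4 and 6 averaged 54.0 CPM, above every siNT sample. Of the exon bases annotated for DDIT3, 31.6% are shared with MARS1 or MBD6, and reads there were not counted if both genes were hit.

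NUPR1, a small stress-induced chromatin protein, was split between the same sets. It averaged 108 CPM in replicates 1, 3 and 5 and 212.5 CPM in replicates 2, 4 and 6. Both averages were inside the siNT range, but its upper end of 212.6 CPM came from siNT replicate 6 alone. The other siNT samples were at 99.4 to 154 CPM, and siCHKA replicates 2, 4 and 6 at 195 to 223 CPM. The lowest, median and highest NUPR1 values were 105, 153 and 223 CPM in siCHKA and 99.4, 139 and 213 CPM in siNT. The log2 fold change was 0.15 (SE 0.21, edgeR adjusted p = 0.559). CEBPB, a bZIP partner of ATF4, was at 26.8 ± 2.99 CPM in siCHKA and 25.7 ± 2.08 in siNT and did not pass the test (log2 fold change 0.06, adjusted p = 0.533).

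ATF3, ATF5 and CEBPG, which encode further bZIP factors of the same response, were higher by 0.27, 0.22 and 0.22 on the log2 scale (edgeR adjusted p = 0.0207, 0.00346 and 0.00914). Their siCHKA and siNT samples overlapped in each case. ATF5 shares 19.5% of its annotated exon bases with IL4I1 or NUP62. The ATF3 call was lost when siCHKA replicate 4 (adjusted p = 0.0551) or siNT replicate 1 (0.0547) was left out.

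Of 4 listed genes of eIF2 and its phosphatases, 1 was lower and 1 higher, beside 30.1% and 32.1% of all genes. EIF2S1 (chromosome 14, 67360328 to 67386516) encodes the alpha subunit of eIF2, the subunit that stress kinases phosphorylate. Its lowest, median and highest values were 194, 205 and 226 CPM in siCHKA and 345, 363 and 391.7 CPM in siNT. The groups lay far apart, the replicate sets of siCHKA overlapped, and the mean of 207 ± 10.8 CPM was 56.6% of the siNT mean of 366 ± 21.7 (log2 fold change -0.82, SE 0.05, edgeR adjusted p = 5.91e-10).

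PPP1R15A (chromosome 19, 48872212 to 48876059) encodes GADD34, the stress-induced subunit that brings protein phosphatase 1 to eIF2. It was a low transcript, at 5.78, 6.90 and 7.34 CPM (lowest, median, highest) in siCHKA and 3.79, 4.52 and 5.26 CPM in siNT. It was the only listed gene whose siCHKA samples were all above the siNT samples, with a log2 fold change of 0.54 (SE 0.10, edgeR adjusted p = 0.000225). PPP1R15B, which encodes the constitutive counterpart of GADD34, was at 263 ± 20.2 CPM against 243 ± 9.92 (log2 fold change 0.11, adjusted p = 0.0822), and this value passed the test when siCHKA replicate 6 was left out (adjusted p = 0.0491). EIF2AK4, which encodes the amino acid sensing eIF2 kinase GCN2, was at 122 ± 14.7 CPM against 130.5 ± 8.45 and did not pass (log2 fold change -0.10, adjusted p = 0.256).

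**Figure D2:**
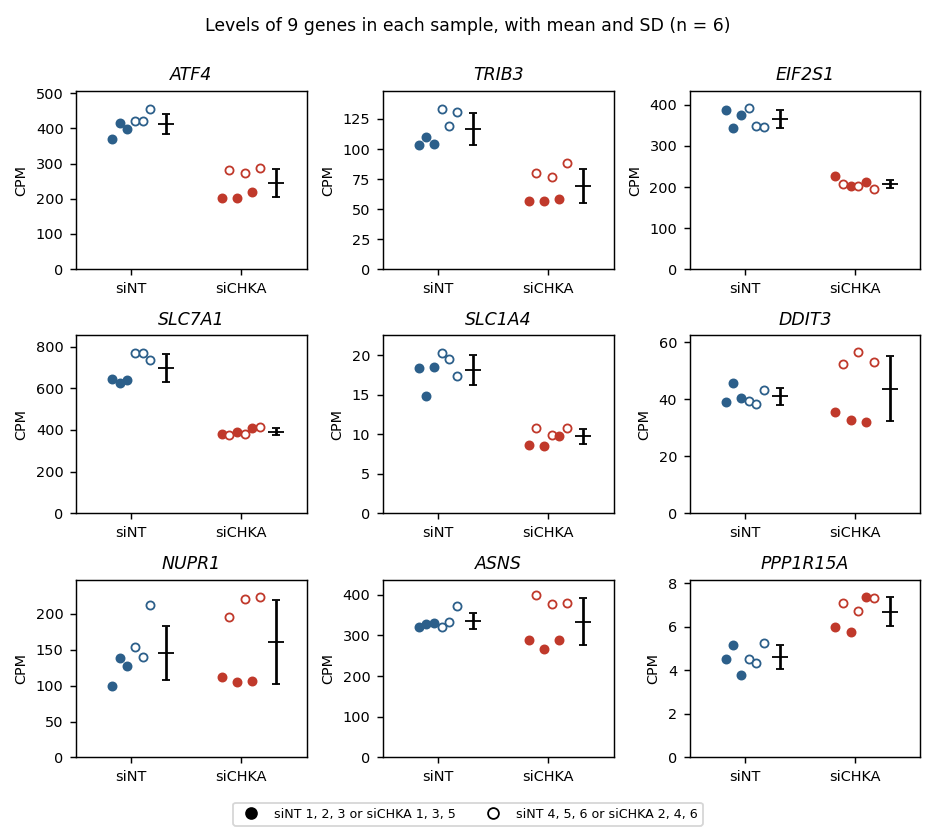
CPM of 9 genes on linear axes that start at 0, with 1 point per sample and, beside the points, the mean and SD of the 6 samples. Filled points are siCHKA replicates 1, 3 and 5 or siNT replicates 1, 2 and 3, and open points the other samples. ATF4, TRIB3, EIF2S1, SLC7A1 and SLC1A4 were lower in every siCHKA sample, PPP1R15A was higher in every one, and the siCHKA samples of DDIT3, NUPR1 and ASNS fell into 2 clusters around the siNT level.

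The serine, glycine and one-carbon enzymes were divided within 1 pathway. PHGDH, the first enzyme of serine synthesis, was lower in all 6 siCHKA samples (448.5 to 503 CPM, median 478) than in any siNT sample (550.4 to 621 CPM, median 580), with a log2 fold change of -0.30 (SE 0.05, edgeR adjusted p = 6.25e-05). PSAT1, the second enzyme, was at 508 ± 66.9 CPM against 559 ± 33.8 and did not pass (log2 fold change -0.14, adjusted p = 0.137). PSPH, the last, was higher, at 102 ± 14.1 CPM against 87.7 ± 4.68 (log2 fold change 0.22, adjusted p = 0.0184), with overlapping groups. Pseudogenes share the symbols of PSAT1 and PSPH.

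SHMT2, which converts serine to glycine in mitochondria, was at 293, 320 and 338.5 CPM (lowest, median, highest) in siCHKA and at 434, 454 and 493.5 CPM in siNT. The groups did not overlap, and the log2 fold change was -0.53 (SE 0.05, edgeR adjusted p = 2.06e-07). MTHFD2, the next mitochondrial folate enzyme, was also lower, with a log2 fold change of -0.30 (SE 0.08, adjusted p = 0.00208), although its highest siCHKA sample (279 CPM) exceeded its lowest siNT sample (276 CPM). MTHFD2 has 7 pseudogenes by symbol and shares 11.6% of its exon bases with SLC4A5. ALDH1L2, which oxidises formyl-tetrahydrofolate in mitochondria, went the other way at a low level, 5.13 ± 0.611 CPM against 3.71 ± 0.518 (log2 fold change 0.46, SE 0.12, adjusted p = 0.00245).

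ASNS (chromosome 7, 97851677 to 97872542), which makes asparagine and is among the best known ATF4 targets, had nearly equal means of 333 ± 57.6 CPM in siCHKA and 334 ± 19.6 in siNT. The log2 fold change was -0.0042 (SE 0.09, edgeR adjusted p = 0.972). The siCHKA samples, at 267 to 398 CPM with a median of 333.6, lay on both sides of the siNT samples, at 320 to 373 CPM with a median of 329: replicates 1, 3 and 5 were below all of them and replicates 2, 4 and 6 above all of them. The annotation holds 4 pseudogenes named after ASNS. PYCR1, the last step of proline synthesis in mitochondria, was at 317 ± 12.9 CPM against 338 ± 23.2 and did not pass (log2 fold change -0.09, adjusted p = 0.149). PYCR1 shares 14.1% of its annotated exon bases with MYADML2. PCK2, which makes phosphoenolpyruvate in mitochondria, was higher by 0.23 on the log2 scale (SE 0.08, adjusted p = 0.0208), and this call was lost without siCHKA replicate 6 (adjusted p = 0.0527), siNT replicate 1 (0.0650) or siNT replicate 3 (0.0627).

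In transsulfuration, the route from homocysteine to cysteine, both enzymes were higher. CTH, the second enzyme, was at 28.0 ± 2.58 CPM against 23.6 ± 1.51 (log2 fold change 0.25, SE 0.07, edgeR adjusted p = 0.00389). CBS, the first, was at 256 ± 50.4 CPM against 212 ± 25.1, with an adjusted p of 0.0470 that rose to between 0.0859 and 0.119 when siCHKA replicate 2, 4 or 6, or siNT replicate 1, 4, 5 or 6, was left out. CHAC1, which breaks down glutathione, was lower: the lowest, median and highest siCHKA values were 10.9, 15.5 and 19.9 CPM against 19.0, 20.7 and 22.2 CPM in siNT (log2 fold change -0.39, SE 0.13, adjusted p = 0.0170). The overlap of the groups came from the siCHKA replicates 2, 4 and 6.

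Among the listed amino acid transporters, 6 of 7 were lower and none was higher, beside 30.1% and 32.1% of all genes, with a median log2 fold change of -0.37. SLC1A4, a carrier of alanine, serine and cysteine, had the largest change of the 34 genes. Its lowest, median and highest values were 8.52, 9.84 and 10.8 CPM in siCHKA and 14.8, 18.5 and 20.3 CPM in siNT, so that siCHKA held 53.7% of the siNT level (log2 fold change -0.90, SE 0.09, edgeR adjusted p = 1.50e-07). SLC7A1 (chromosome 13, 29509414 to 29595688), the main carrier of arginine and lysine, was at 376, 385 and 416 CPM in siCHKA and 626, 690 and 771 CPM in siNT. Neither gene had a siCHKA sample within the siNT range. For SLC7A1 the log2 fold change was -0.83 (SE 0.06, adjusted p = 6.24e-09).

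SLC7A5 and SLC3A2 encode the light and heavy chains of the LAT1 exchanger of large neutral amino acids, and both were lower. SLC7A5 was at 182, 212 and 229 CPM (lowest, median, highest) in siCHKA and 281, 299 and 318 CPM in siNT (log2 fold change -0.53, SE 0.06, edgeR adjusted p = 1.03e-06). SLC3A2 was at 150.1, 168 and 182 CPM against 188, 204 and 220.1 CPM (log2 fold change -0.29, SE 0.06, adjusted p = 0.000637). In both genes every siCHKA sample was below every siNT sample. SLC7A5 has 2 pseudogenes by symbol. SLC7A11, which pairs with the same heavy chain to import cystine, was lower on average (177 ± 31.7 against 230 ± 42.9 CPM, log2 fold change -0.37, SE 0.12, adjusted p = 0.0147) with overlapping groups, and 8.97% of its exon bases are shared with an antisense gene. SLC38A2, a carrier of small neutral amino acids, had all siCHKA samples (534 to 583 CPM, median 551) below all siNT samples (600.4 to 675 CPM, median 620), with a log2 fold change of -0.19 (SE 0.05, adjusted p = 0.00263). SLC1A5, a glutamine carrier, was at 205 ± 18.9 against 219 ± 9.70 CPM and did not pass (log2 fold change -0.09, adjusted p = 0.189).

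Of the last 3 genes, STC2, a secreted glycoprotein induced in the integrated stress response, was at 102, 131 and 166 CPM (lowest, median, highest) in siCHKA and 174, 197 and 242 CPM in siNT, without overlap (log2 fold change -0.61, SE 0.13, edgeR adjusted p = 0.000541). DDIT4, which encodes the mTORC1 inhibitor REDD1, was lower at 302 ± 37.7 against 436 ± 114 CPM (log2 fold change -0.53, SE 0.14, adjusted p = 0.00316). Its siNT samples were themselves spread from 322 to 590.4 CPM, and the groups overlapped. VLDLR, a lipoprotein receptor, was higher at 41.2 ± 1.52 against 32.8 ± 4.67 CPM (log2 fold change 0.34, SE 0.08, adjusted p = 0.00129).

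The replicate sets differed in many of these genes. In siCHKA, 24 of the 34 (70.6%) were lower in replicates 1, 3 and 5 than in replicates 2, 4 and 6 without overlap, where 22.9% of all tested genes were, and 3 (EIF2AK4, PPP1R15B and VLDLR) were higher, where 24.6% were. NUPR1 was 1.97-fold, CHAC1 1.62-fold, DDIT3 1.62-fold, STC2 1.51-fold, TRIB3 1.43-fold, ASNS 1.37-fold and ATF4 1.35-fold higher in replicates 2, 4 and 6. In contrast, SLC7A1, EIF2S1, CEBPG, PHGDH, PPP1R15A, ALDH1L2 and SLC1A5 overlapped between the sets. In siNT, 16 of the 34 (47.1%) were lower in replicates 1, 2 and 3 than in replicates 4, 5 and 6, where 16.2% of all genes were, and 2 (ATF5 and CBS) were higher, where 13.2% were. The sets are descriptions of these libraries, and the sharing of a direction by so many of the genes counts as 1 pattern, since genes of 1 library are not independent.

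**Figure D3:**
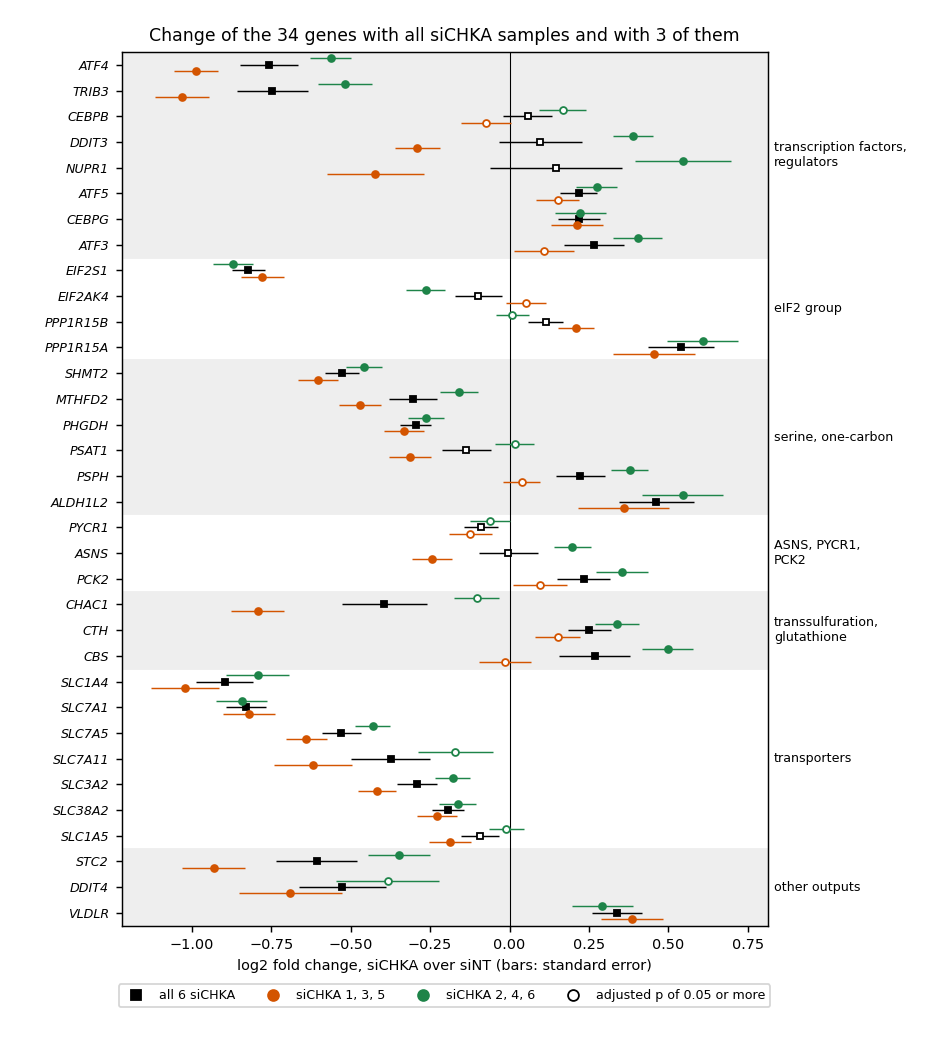
Log2 fold change of each gene against the 6 siNT samples with its standard error, computed with all 6 siCHKA samples (black squares), with replicates 1, 3 and 5 only (orange) and with replicates 2, 4 and 6 only (green). Open symbols did not pass an adjusted p of 0.05, and the sets were seen in the data, so filled orange and green symbols are descriptions. For ATF4, TRIB3, EIF2S1, SLC7A1 and SLC1A4 all 3 symbols are filled and lie left of 0, whereas for DDIT3, NUPR1 and ASNS the orange and green symbols lie on opposite sides of 0.

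The comparison with siNT was therefore repeated with each set left out. Since the sets were seen in the data, the spread within a set is small by that choice and calls may be reached more easily. Fewer samples also make calls harder to reach. These fits are therefore given as descriptions, without p-values. With siCHKA replicates 2, 4 and 6 alone, 13 of the 34 were lower and 13 higher, beside 30.7% and 31.5% of all genes. With replicates 1, 3 and 5 alone, 20 were lower and 5 higher, beside 29.3% and 30.0% of all genes, and the median log2 fold change of the 34 was -0.27 in place of -0.10. With siNT replicates 4, 5 and 6 alone as the control, 14 were lower and 6 higher, beside 26.8% and 27.1%. With siNT replicates 1, 2 and 3 alone, 12 were lower and 7 higher, beside 27.2% and 27.8%.

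In all 4 of these fits and in the full one, 12 genes were lower: SLC1A4, SLC7A1, EIF2S1, ATF4, TRIB3, STC2, SLC7A5, SHMT2, MTHFD2, PHGDH, SLC3A2 and SLC38A2. PPP1R15A, ALDH1L2 and VLDLR were higher in all of them. The share of all genes that kept a call in all of these fits is not given here. These counts therefore do not say whether the list is unusual. For ATF4 the log2 fold change was -0.99 (SE 0.07) with siCHKA replicates 1, 3 and 5 and -0.56 (SE 0.06) with replicates 2, 4 and 6, and for SLC7A1 it was -0.82 and -0.84. The value moved more for STC2, -0.93 against -0.35, for MTHFD2, -0.47 against -0.16, and for SLC3A2, -0.42 against -0.18.

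For 3 genes the 2 sets of siCHKA were called in opposite directions against siNT. For NUPR1 both set averages were inside the siNT range, the upper one only because of siNT replicate 6. The set averages of PSAT1, CEBPB, CBS and EIF2AK4 also lay on opposite sides of the siNT mean, without opposite calls. DDIT3 had a log2 fold change of -0.29 with replicates 1, 3 and 5 and of 0.39 with replicates 2, 4 and 6. NUPR1 gave -0.42 and 0.55, and ASNS gave -0.25 and 0.20. The lower levels of CHAC1, SLC7A11 and DDIT4 in the full comparison were larger differences with replicates 1, 3 and 5 (-0.79, -0.62 and -0.69) than with replicates 2, 4 and 6 (-0.10, -0.17 and -0.38), and the calls were lost with the second set alone. The calls of ATF3, ATF5, PSPH, PCK2, CTH and CBS as higher were lost with replicates 1, 3 and 5 alone, where their log2 fold changes ran from -0.01 for CBS to 0.15 for CTH and ATF5. Calls also changed with the siNT samples used. Against siNT replicates 1, 2 and 3 alone, DDIT4 (-0.17), SLC7A11 (-0.14), CHAC1 (-0.38), ATF5 (0.12), PSPH (0.17) and CBS (0.14) did not pass. Against replicates 4, 5 and 6 alone, CHAC1 (-0.44), CEBPG (0.08), PCK2 (0.08), CTH (0.17) and ATF3 (0.20) did not. In both of these fits CHAC1 stayed near its -0.39 of the full fit, with an SE of 0.18 in place of 0.13. The cause of the lost call was not tested.

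ATF4 binds DNA as a dimer with a C/EBP factor at a composite element, and the letters of that element were looked for in the promoters. The motif searched was TGATGNAAN on both strands, in RefSeq windows of 300 bases that run from 250 bases before to 50 bases after each annotated start (GRCh38.p14). A window was at hand for 28 of the 34 genes, and 9 of them (32.1%) held the motif, as did 2.73% of the 10594 tested genes with a window and 4.45% of all 27305 genes with one. The 34 genes were chosen by name as known genes of this response and of amino acid supply. A higher share than in all genes may follow from that choice and is no result of siCHKA. The 9 genes with the motif are listed because they include genes that were lower with ATF4 in siCHKA and genes that were not. Each is shown 5′ to 3′ on the strand on which the motif reads, with the motif in capitals and its flanks in lower case.
SLC7A1, chr13:29595663-29595691, minus strand: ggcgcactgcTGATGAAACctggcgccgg
SLC1A4, chr2:64989381-64989409, minus strand: cggctggagaTGATGCAAAcgggagccgc
SLC3A2, chr11:62881725-62881748, minus strand: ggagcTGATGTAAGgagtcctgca
CHAC1, chr15:40953251-40953279, minus strand: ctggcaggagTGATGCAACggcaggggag
ASNS, chr7:97872458-97872486, minus strand: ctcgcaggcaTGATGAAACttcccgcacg
SLC1A5, chr19:46784893-46784921, minus strand: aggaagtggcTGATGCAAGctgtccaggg
PPP1R15B, chr1:204412026-204412054, minus strand: ccgccccggcTGATGCAACctcacgctgc
ATF3, chr1:212565206-212565234, plus strand: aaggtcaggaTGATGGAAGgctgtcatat
CEBPG, chr19:33374061-33374089, plus strand: gcgcggcgtcTGATGCAACctgccggcaa

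Of the 9 genes with the motif, 4 were lower (SLC7A1, SLC1A4, SLC3A2 and CHAC1), 2 were higher (ATF3 and CEBPG) and 3 did not pass (ASNS, SLC1A5 and PPP1R15B). Of the 19 genes with a window and no match, 9 were lower, 6 higher and 4 neither. Among all tested genes, 30.1% were lower and 32.1% higher, and the difference between genes with and without the motif was not tested. The sequence of ASNS and that of SLC7A1 carry the same 9 letters, with the first base at 68 bases before the start in ASNS and at position 7 after it in SLC7A1, and their log2 fold changes were -0.0042 and -0.83. A match is a stretch of letters, not a measured binding site, and the absence of one says only that these letters are not in this window.

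The related lists give the setting. All counts in them are to be read beside the 30.1% of all tested genes that were lower and the 32.1% that were higher. Of 19 other known ATF4 targets, 9 were lower and 4 higher, with a median log2 fold change of -0.12. EIF4EBP1, the repressor of cap-dependent translation, was at 46.8% of its siNT level (log2 fold change -1.10, edgeR adjusted p = 8.54e-11), the glycine carrier SLC6A9 at 56.4%, and the apoptosis regulator PMAIP1 at 42.7%, whereas ASS1, which makes argininosuccinate, was higher by 0.95 on the log2 scale (adjusted p = 2.89e-08), KLHL24 by 0.90 and MAP1LC3B by 0.90. Of 20 cytosolic tRNA synthetases, 8 were lower, led by IARS1 (log2 fold change -0.63), and 4 higher, led by CARS1 (0.26), with a median of -0.07. Of 12 further genes of the eIF2 kinases, eIF2 and its exchange factor eIF2B, 6 were lower and 2 higher. EIF2AK3, which encodes the endoplasmic reticulum kinase PERK, fell by 0.64 on the log2 scale, EIF2B3 by 0.72 and EIF2S3, another subunit of eIF2, by 0.31.

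The 22 genes of the other 2 arms of the endoplasmic reticulum stress response, under ATF6 and under IRE1 and XBP1, were lower in 21 cases and higher in none, with a median log2 fold change of -0.71 beside -0.10 for the 34 genes. MANF, HYOU1 and PDIA4, a secreted factor, a chaperone and a disulfide isomerase, fell by 1.52, 1.17 and 1.51 on the log2 scale. The list of these 22 genes was chosen with their lower level already seen in an earlier look at these samples, which is not the study's own report. The difference between the lists was not tested. In replicates 1, 3 and 5 of siCHKA, 31.8% of these genes were lower than in replicates 2, 4 and 6 without overlap, beside 70.6% of the 34 and 52.6% of the other ATF4 targets.

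Of 17 other amino acid transporters tested, 7 were lower and 3 higher (30.1% and 32.1% of all genes), among them the proton-coupled carrier SLC36A1 at 37.3% of its siNT level (log2 fold change -1.42, edgeR adjusted p = 5.23e-12), SLC7A8 at 59.4% and SLC7A6 at 55.9%, with SLC38A7 higher by 0.29. Of 26 other enzymes of amino acid and folate metabolism tested, 14 were lower and 6 higher, beside the same shares. MTHFD1L, ALDH18A1, GPT2 and ASS1 are counted both in this list and among the other ATF4 targets. MTHFD1, the cytosolic counterpart of the mitochondrial folate enzymes, fell by 0.63 on the log2 scale and the glycine cleavage protein GCSH by 1.00, and MTHFD2L, a relative of MTHFD2, was higher by 0.84.

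**Figure D4:**
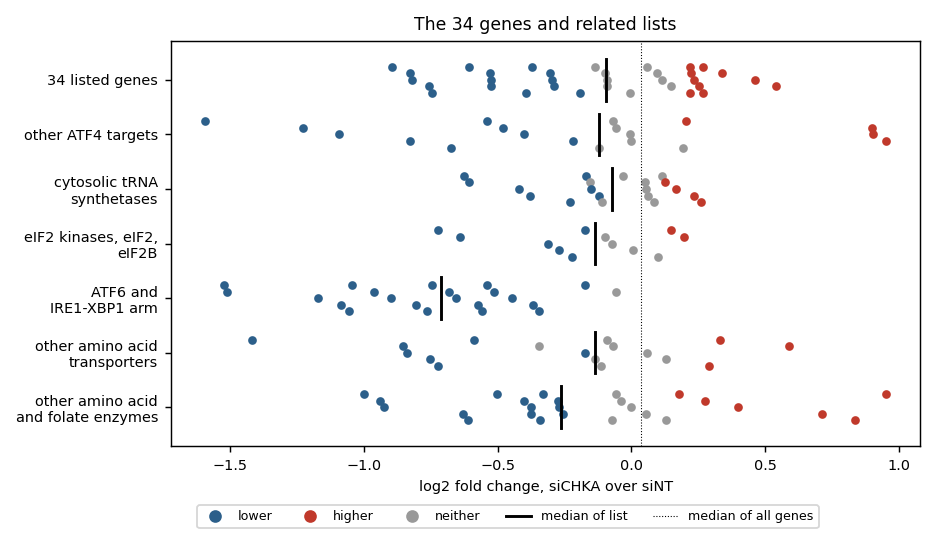
Each point is 1 gene, placed by its log2 fold change of siCHKA over siNT, in the 34 listed genes and in 6 related lists. Blue points were lower and red points higher at an adjusted p below 0.05, grey points neither, the black bar is the median of each list and the dotted line the median of all tested genes. The 34 genes lie on both sides of 0 with a median of -0.10, and the ATF6 and IRE1-XBP1 list lies left of 0 with a median of -0.71.

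All 10 markers of prostate epithelium and of C4-2 cells were above 80 CPM in every sample, with KLK3 at 1726 to 2747 CPM in siCHKA and 2782 to 3811 CPM in siNT. Of these 10, 7 were lower and 3 higher in siCHKA, beside 30.1% and 32.1% of all genes. Of 12 markers of other cell types, 11 had an identifier, and 7 of these were below 0.3 CPM in every sample, with the T cell marker CD3E at 0 throughout. The filter on low counts left 4 of them to test, of which 1 was lower and 3 were higher, beside the same shares. The summed level of the list was 30.9 to 38.6 CPM in siCHKA and 18.8 to 26.8 CPM in siNT, most of it from the collagen gene COL1A1 (26.8 ± 2.10 against 15.0 ± 2.33 CPM), while the fibroblast genes COL1A2 and DCN were below 0.3 CPM in every sample. In the sum, siCHKA replicates 1, 3 and 5 (30.9 to 37.7 CPM) overlapped with replicates 2, 4 and 6 (33.9 to 38.6 CPM). The part of COL1A1 and of these markers in the results was not tested. Less RNA per cell and fewer cells of a kind cannot be told apart in bulk RNA.

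Levels were compared between genes only per length, as CPM per kilobase of the Ensembl canonical transcript, in the 6 siNT samples. PHGDH stood highest at 313 ± 14.2, followed by ATF4 at 291.5 ± 20.02, PSAT1 at 253 ± 15.3, DDIT4 at 249.8 ± 65.3 and SHMT2 at 213 ± 10.6. At the low end were SLC1A4 at 3.98 ± 0.422, VLDLR at 3.56 ± 0.507, PPP1R15A at 1.96 ± 0.233 and ALDH1L2 at 0.499 ± 0.0698. Of the 33 pairs of neighbours in this order, 24 had overlapping ranges over the siNT samples, so that the order is firm between tiers rather than between neighbours. Most genes that were lower in siCHKA stood in the upper part of the order, with SLC7A11, CHAC1 and SLC1A4 further down. Most genes that were higher stood in the lower part, with CBS and PCK2 further up. The part of the level in the calls was not tested. In siCHKA, ATF4 was at 172 CPM per kilobase, below PHGDH at 255 and PSAT1 at 230.5.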

How the data were processed

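RNA of 12 samples, 6 siCHKA and 6 siNT, was grouped by the sample labels, which also give the replicate numbers. The authors deposited raw read counts per Ensembl gene, without normalization, in 4 count files per sample. Per the labels and the submitters' processing notes, reads were aligned to GRCh37 with TopHat2 2.0.4, counted with HTSeq 0.5.3p9 and compared with DESeq 1.10.1. Reads with several alignments (26.1% to 30.6% of the total) and reads on overlapping genes (2.83% to 2.93%) were left out by that counting, as were reads on no gene (3.96% to 5.97%), so genes with near copies are measured less surely. Whether the counting used strand is not given in the sources used here.

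The files of a sample were summed, and rows that name no gene were left out of library sizes. Symbols and GRCh38 coordinates came from GENCODE release 44 (82.8% of identifiers had a symbol), and no GRCh37 coordinate is printed. Counts were analysed with edgeR 4.0.16 (filterByExpr, TMM, quasi-likelihood test of siCHKA against siNT over all 12 samples, no covariates) in R 4.3.3, with Benjamini-Hochberg adjustment over 14501 genes and a threshold of 0.05. CPM use TMM library sizes. Both tools were first tested on simulated data. With 3 counts as the floor, 0.124 to 0.281 CPM could be seen, and this covers counting error only. Promoter windows are those of RefSeq (GRCh38.p14), and figures were drawn with matplotlib 3.10.9 in Python 3.11.15.

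The 34 genes, the related lists and the replicate sets were chosen with earlier results of these data known. All 34 genes are named with values, with full statistics for CHKA and the members with the largest changes, and at most 3 genes in each direction by smallest p from each related list. Not every gene that this rule allows is reported here. Alternatives were RLE normalization, DESeq2 1.42.0, a minimum of 10 counts in every sample, no filter, a replicate block, each sample left out, each replicate set left out, 1 count file per sample and a minimum size of 0.5 on the log2 scale. Leaving out the siNT sets was chosen after seeing the data. SLC6A14 and PECAM1 had no matching identifier. The replicate numbers did not pair the samples: the deviations of same-numbered samples from their group means correlated between -0.396 and 0.32 (mean -0.036).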

Additional observations from a re-analysis of the deposited data

Results flagged for a closer look

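Among 68 sets of 6 values (34 genes in 2 groups), 2 held a sample far from the other 5, where chance gives about 1 in 20, or 3.4. ASNS was at 372.8 CPM in siNT replicate 6 and between 319.8 and 333.7 CPM in the other siNT samples. PYCR1 was at 292.6 CPM in siCHKA replicate 1 and between 315.8 and 329.5 CPM in the other siCHKA samples. Neither gene passed the test between the groups with all samples or without that sample.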

How the results depend on the processing

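With 15 genes lower and 10 higher in the full fit, 12 of the lower genes, 3 of the higher ones and 2 of the 9 in neither kept their call in every one of 22 alternatives, which do not include the minimum size of 0.5 on the log2 scale. The share of all genes that kept their call in the same way is not given here. The count of lower genes moved to 9 with a minimum size of 0.5 on the log2 scale, and the count of higher genes to 1 with that minimum, to 5 without siCHKA replicates 2, 4 and 6 and to 6 without siNT replicates 1, 2 and 3. The median of the 34 moved to -0.27 without siCHKA replicates 2, 4 and 6. CHKA kept its direction and call in all 22. The sign turned without siCHKA replicates 2, 4 and 6 for DDIT3 (-0.29), CEBPB (-0.074), NUPR1 (-0.42), EIF2AK4 (0.051) and CBS (-0.013), without siNT replicates 1, 2 and 3 for CEBPB (-0.0099) and NUPR1 (-0.083), and without siCHKA replicates 1, 3 and 5 for PSAT1 (0.017) and ASNS (0.20). ASNS, near 0, also turned with at least 10 counts in every sample (0.022), with 1 count file per sample (0.062), without siNT replicates 4, 5 and 6 (0.018) and with single samples left out (-0.060 to 0.052). With RLE normalization CBS no longer passed (edgeR adjusted p = 0.0512). The cause of these moves was not tested. Leaving out the siNT sets was chosen after seeing the data.

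The replicate block left 15 genes lower and 10 higher with a median of -0.10. Over all genes it gave 4273 lower and 4494 higher calls, against 4371 and 4650. The samples share only a number: 2 of 6 same-numbered pairs had a correlation over 0.1, and 1 siCHKA sample correlated best with its own number.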

Other observations

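The replicate sets of siCHKA were also looked at in the lists around the 34 genes, as a description with no test, beside 22.9% of all genes that were lower in replicates 1, 3 and 5 without overlap and 24.6% that were higher. Of 19 other ATF4 targets, 10 were lower in replicates 1, 3 and 5 than in replicates 2, 4 and 6 without overlap and 4 were higher. Of 20 cytosolic tRNA synthetases, which ATF4 is also known to induce, 6 were lower and 7 higher. Of 17 other amino acid transporters, 0 were lower and 4 higher, and of 26 other amino acid and folate enzymes, 6 were lower and 10 higher. Of 10 prostate and C4-2 markers, 5 were lower, among them the kallikrein gene KLK2 at 154 to 168 CPM against 280 to 287 CPM, and 3 were higher.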
